A study of Sus scrofa with 6 samples.

Results

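The 2 ovary libraries of a 6-library pig RNA sequencing series were compared with the 4 libraries of hypothalamus and pituitary, to describe which genes set the ovary apart from the other tissues of the reproductive axis. The ovary members were all libraries labelled ovary, 2 of 6, and nothing measured was used to choose them. RNA came from Landrace x Large White sows that had farrowed a single litter (primiparous sows), in 2 states. The anestrous sows had inactive ovaries by the labels, and the estrous sows were in normal estrus. Each tissue gave 1 anestrous and 1 estrous library, so the ovary, the hypothalamus and the pituitary had 2 libraries each. Each state had 3 sows by the labels, and whether a library pools their RNA is not stated. Both ovary libraries were made from intact ovaries, so follicles, stroma and vessels are mixed in them.

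The ovary holds follicles, in which an oocyte is enclosed by granulosa cells and an outer theca. Under luteinizing hormone theca cells turn cholesterol into androgens, and under follicle-stimulating hormone granulosa cells convert these to estrogens and secrete inhibin. Hypothalamus and pituitary drive this cycle through gonadotropin-releasing hormone and the gonadotropins, and receive steroids and inhibin back.

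Library totals over all genes were 16436816 reads in anestrous and 15487425 reads in estrous ovary, against 15314325 to 17384789 in the 4 others. All values are on the reads-per-million scale (RPM), from reads recovered from 3 tables that had been normalised separately. They depend on the length of a gene, so levels are compared between libraries and not between genes. The 10 genes with most reads took 11.5% of the reads of the anestrous and 8.55% of the estrous ovary, against 20.3% to 21.9% in hypothalamus and 33.3% to 35.9% in pituitary. The test was limma on log2(RPM + 1) over 13483 genes with a mean of at least 1 RPM, with 1 mean per tissue and p-values adjusted by the Benjamini-Hochberg method. A gene was called when its limma adjusted p was at most 0.05 and its log2 fold at least 1 in size. Folds are given as log2 of ovary over the average of the hypothalamus and pituitary means, with the standard error (SE) of the fit over 6 libraries, and they understate the difference of genes with few reads. A member that averages under 1 RPM in the 4 other libraries passes the filter only through the ovary, and is then bound to come out higher, so its call adds nothing to its values. The libraries of a tissue come from different states and no label gives replicate cultures or animals for a library. These p-values therefore measure only the spread between these 6 libraries. The fit pools that spread over the 3 tissues. Between states 17.2% of tested genes differed at least 2-fold in ovary, against 2.02% in hypothalamus and 2.75% in pituitary. The SE and the p-values can therefore understate the spread between the ovary libraries. The labelled tissues held several of their defining genes, since FSHR, STAR and ZP3 were highest in the ovary libraries, GFAP in hypothalamus and PRL and CGA in pituitary. Not every ovary marker did so. GDF9 did not separate the tissues, and FOXL2 in the anestrous ovary lay within the pituitary range. In intact tissue, more cells of a type and more RNA per cell cannot be told apart.

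Against both other tissues jointly, 2412 genes (17.9% of those tested) were called higher and 2250 (16.7%) lower in ovary. Ovary against hypothalamus gave 2477 higher (18.4%) and 2928 lower (21.7%) genes. Ovary against pituitary gave 2665 higher (19.8%) and 1592 lower (11.8%). These comparisons share the ovary libraries, and 1475 genes (10.9%) were called higher in both of them and 1132 (8.4%) lower in both. The shares over all tested genes are the background for the counts of every gene list below. Of the 2412 jointly higher genes, 454 were called only against hypothalamus, 453 only against pituitary and 30 in neither. Without any model, both ovary libraries lay above all 4 others for 3828 genes (28.4%) and below all 4 for 2452 (18.2%), and 2169 of the 2412 were among those above. The split depended on how libraries were scaled. With the trimmed mean of M-values (TMM), 1974 genes were higher and 2528 lower in that joint comparison, so that 43.8% of calls were higher, against 51.7% with library totals. In the comparison with pituitary that share was 47.4% with TMM (1895 higher, 2106 lower) and 62.6% with library totals. TMM moved the median log2 fold of all tested genes to -0.02 from 0.15 jointly, and to -0.02 from 0.27 against pituitary. Without the anestrous hypothalamus library 1441 genes were called higher than in hypothalamus and 890 higher than in each tissue. Without the anestrous pituitary 1226 were called higher than in pituitary and 803 higher than in each tissue, and without the estrous pituitary 1610 and 962, with 1040 lower than in pituitary. With the 4 other libraries pooled into 1 group, which puts the difference between hypothalamus and pituitary into the error, 1311 were called higher and 854 lower.

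**Figure D1:**
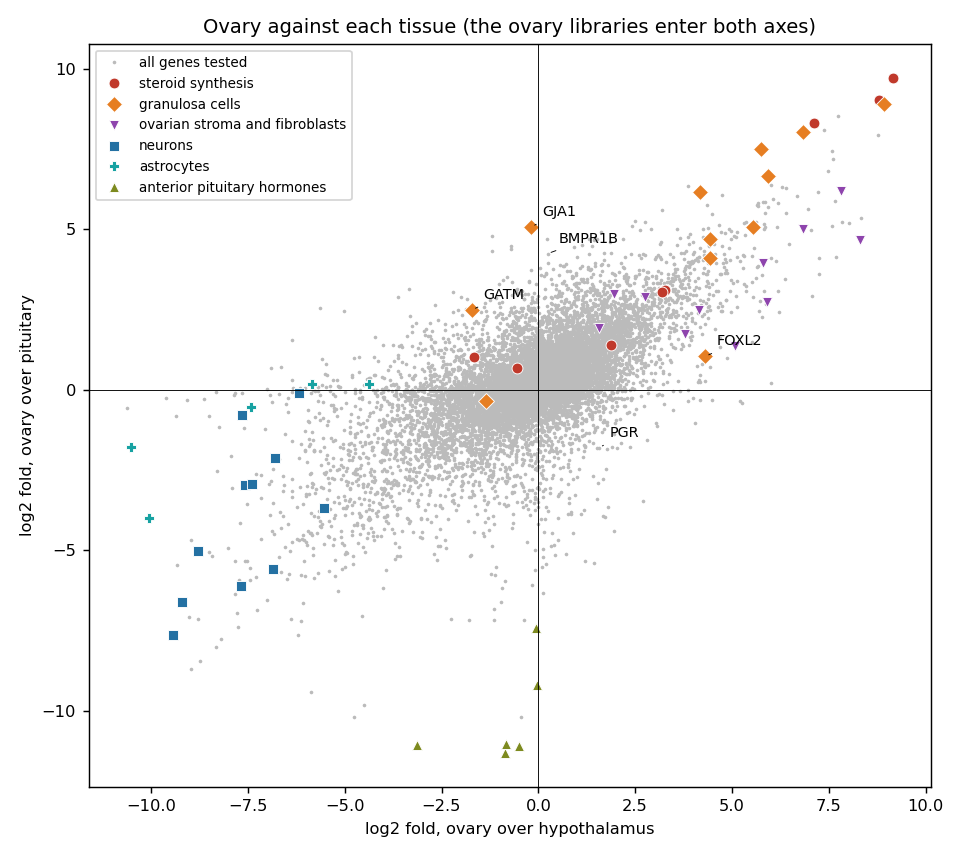
Log2 fold of ovary over hypothalamus (x axis) and of ovary over pituitary (y axis) for the 13483 genes tested, with members of 6 gene lists in colour. The axes share the ovary libraries, so points line up along the diagonal in part for that reason. Steroid synthesis and granulosa genes lie at the upper right, neuronal genes at the lower left and pituitary hormones at the bottom near 0 on the x axis, while GJA1, BMPR1B, GATM, FOXL2 and PGR lie off the diagonal.

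Genes of steroid synthesis were among those that stood highest in ovary. Of 10 members found by name 10 were tested, 7 were called higher and 0 lower, and each of the 7 was higher against each tissue. Their median log2 fold was 3.88, against 0.15 over all tested genes. HSD3B1, which forms progesterone and androstenedione, had 3004 RPM in anestrous and 662 RPM in estrous ovary, against 1.52 and 1.44 RPM in anestrous and estrous hypothalamus and 0.69 and 0.647 RPM in anestrous and estrous pituitary. Its lower ovary library was far above the highest of the others, and its log2 fold was the largest of all named genes (log2 fold 9.44 ± 0.56, limma adjusted p = 8.02e-05). CYP17A1, the enzyme that makes androgens, had 256 RPM in anestrous and 4178 RPM in estrous ovary, against 0.885 and 1.83 RPM in anestrous and estrous hypothalamus and 0.978 and 0.999 RPM in anestrous and estrous pituitary. STAR, which carries cholesterol into mitochondria for the initial step, had 119.6 RPM in anestrous and 3253 RPM in estrous ovary, against 3.29 and 3.72 RPM in anestrous and estrous hypothalamus and 0.978 and 0.941 RPM in anestrous and estrous pituitary. Both genes had their ovary libraries above all others but far apart from each other. The SE of the fold shows this only in part, because it pools the spread of all tissues (log2 fold 8.92 ± 1.0, limma adjusted p = 0.000827 for CYP17A1, log2 fold 7.72 ± 1.16, limma adjusted p = 0.00258 for STAR).

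The enzymes of the estrogen branch were higher as well. CYP19A1, aromatase, had 69.8 RPM in anestrous and 581 RPM in estrous ovary, against 4.68 and 1.5 RPM in anestrous and estrous hypothalamus and 0.173 and 0.0588 RPM in anestrous and estrous pituitary. The ovary libraries lay above the rest, and the hypothalamus libraries above the pituitary ones (log2 fold 6.63 ± 0.81, limma adjusted p = 0.00117). HSD17B1, which reduces estrone to estradiol, had 88.9 RPM in anestrous and 214 RPM in estrous ovary, against 3.0 to 6.21 RPM in the 4 others (log2 fold 4.56 ± 0.41, limma adjusted p = 0.000356). FDXR, which supplies electrons to mitochondrial steroid enzymes, had 64.6 RPM in anestrous and 408 RPM in estrous ovary, against 15.1 to 19.1 RPM in the 4 others (log2 fold 3.19 ± 0.66, limma adjusted p = 0.00864). The fold was 1.87 without the estrous ovary. The lipoprotein receptor SCARB1 had 244 RPM in anestrous and 1071 RPM in estrous ovary, against 54.7 to 64 RPM in the 4 others (log2 fold 3.11 ± 0.53, limma adjusted p = 0.0042), and a log2 fold of 2.05 without the estrous ovary. The 3 members not called were CYB5A, HSD17B7 and SRD5A1. CYB5A, a partner of CYP17A1, had 167 RPM in anestrous and 1268 RPM in estrous ovary, against 119 to 194 RPM in the 4 others. The anestrous ovary lay among the other libraries and the estrous ovary above all of them (log2 fold 1.64 ± 0.72, limma adjusted p = 0.105). It was called with edgeR and with DESeq2. Its log2 fold was 3.1 without the anestrous ovary and 0.19 without the estrous ovary. SRD5A1, which reduces testosterone and progesterone, had 40 RPM in anestrous and 21.6 RPM in estrous ovary, against 99.3 and 90.5 RPM in anestrous and estrous hypothalamus and 11.2 and 17.2 RPM in anestrous and estrous pituitary. It was called lower than in hypothalamus (log2 fold -1.65, limma adjusted p = 0.00807). HSD17B7, which also acts in cholesterol synthesis, had 20.9 RPM in anestrous and 23.5 RPM in estrous ovary, against 12.8 to 36.3 RPM in the 4 others, and its groups overlapped. CYP11A1, FDX1 and SULT1E1 had no entry by name, so they were left out.

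Receptors for the hormones that act on the ovary gave 8 called higher and 0 lower of 12 tested members, with a median log2 fold of 1.35. FSHR and LHCGR passed the filter only through the ovary libraries. FSHR, the receptor for follicle-stimulating hormone on granulosa cells, had 13.4 RPM in anestrous and 31.6 RPM in estrous ovary, against 0 and 0 RPM in anestrous and estrous hypothalamus and 0.23 and 0.294 RPM in anestrous and estrous pituitary. It had no read in hypothalamus and a few in pituitary (log2 fold 4.27 ± 0.35, limma adjusted p = 0.000261). LHCGR, the receptor for luteinizing hormone, had 23.4 RPM in anestrous and 128 RPM in estrous ovary, against 0.126 and 0.131 RPM in anestrous and estrous hypothalamus and 0 and 0.0588 RPM in anestrous and estrous pituitary. Both ovary libraries stood above all others, the estrous one the higher (log2 fold 5.7 ± 0.62, limma adjusted p = 0.000728). AMHR2, the receptor for anti-Müllerian hormone, had 9.86 RPM in anestrous and 69.2 RPM in estrous ovary, against 0.575 to 2.42 RPM in the 4 others (log2 fold 3.39 ± 0.72, limma adjusted p = 0.00943), with a log2 fold of 2.04 without the estrous ovary. PTGFR, through which prostaglandin F2-alpha ends the corpus luteum, had 128 RPM in anestrous and 45.3 RPM in estrous ovary, against 5.52 to 22.2 RPM in the 4 others, and here the anestrous ovary was the higher (log2 fold 2.63 ± 0.45, limma adjusted p = 0.00428). IGF1R, the receptor of insulin-like growth factor 1, had 147 RPM in anestrous and 128 RPM in estrous ovary, against 37.5 to 85.8 RPM in the 4 others (log2 fold 1.28 ± 0.15, limma adjusted p = 0.00105) and was not called against pituitary alone (log2 fold 0.75). INSR, the insulin receptor, had 91.5 RPM in anestrous and 165 RPM in estrous ovary, against 41.4 to 69.8 RPM in the 4 others (log2 fold 1.14 ± 0.25, limma adjusted p = 0.0106). Its log2 fold was 0.96 with TMM and 0.72 without the estrous ovary, both under the threshold. INSR was not called against pituitary alone (log2 fold 0.81, limma adjusted p = 0.0658).

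Several receptors did not single out the ovary. ESR1, the main estrogen receptor of pituitary, had 23.6 RPM in anestrous and 126 RPM in estrous ovary, against 10.6 and 14.4 RPM in anestrous and estrous hypothalamus and 71.1 and 60.4 RPM in anestrous and estrous pituitary. The ovary libraries lay on either side of the pituitary ones. The log2 fold was 0.91 with all libraries, 2.09 without the anestrous ovary and -0.28 without the estrous ovary. PGR, the progesterone receptor, was highest in pituitary, with 2.68 RPM in anestrous and 7.1 RPM in estrous ovary, against 0.759 and 0.914 RPM in anestrous and estrous hypothalamus and 12.5 and 25.7 RPM in anestrous and estrous pituitary. It was called higher than in hypothalamus (log2 fold 1.57, limma adjusted p = 0.0353) and lower than in pituitary (log2 fold -1.8, limma adjusted p = 0.0279). BMPR1B, a receptor for bone morphogenetic proteins that sets ovulation rate in sheep, had 53.4 RPM in anestrous and 63.3 RPM in estrous ovary, against 43.3 and 55.4 RPM in anestrous and estrous hypothalamus and 2.3 and 1.94 RPM in anestrous and estrous pituitary. Ovary and hypothalamus overlapped and the pituitary was low, so its overall call (log2 fold 2.24) rested on pituitary, where the log2 fold was 4.25 with a limma adjusted p of 0.000128. GHR, the growth hormone receptor, had 6.21 RPM in anestrous and 9.69 RPM in estrous ovary, against 4.77 to 15.9 RPM in the 4 others, and its groups overlapped. PRLR, the prolactin receptor, had 0.548 RPM in anestrous and 0.258 RPM in estrous ovary, against 0.718 to 1.96 RPM in the 4 others, below all others in ovary but with a log2 fold of -0.75, under the threshold. ESR2, the estrogen receptor known for its place in granulosa cells, had only 3 and 5 reads in anestrous and estrous ovary, against 10 to 16 reads in the 4 others, and did not pass the filter.

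Granulosa cell genes gave 10 called higher and 0 lower of 12 tested, with a median log2 fold of 4.86. FSHR, counted here too, passed the filter only through the ovary libraries. INHA, the alpha subunit of inhibin, which restrains pituitary follicle-stimulating hormone, had 882 RPM in anestrous and 5575 RPM in estrous ovary, against 3.29 and 3.85 RPM in anestrous and estrous hypothalamus and 3.8 and 3.41 RPM in anestrous and estrous pituitary. The estrous ovary had the higher of the ovary values and the 4 other libraries lay close together (log2 fold 8.92 ± 0.66, limma adjusted p = 0.000179). INHBA, the beta A subunit shared by inhibin and activin, had 282 RPM in anestrous and 403 RPM in estrous ovary, against 2.09 and 1.83 RPM in anestrous and estrous hypothalamus and 0.345 and 0.235 RPM in anestrous and estrous pituitary. Its ovary libraries were close to each other, and the SE was small (log2 fold 7.44 ± 0.23, limma adjusted p = 1.33e-05). FST, follistatin, which binds activin, had 84.1 RPM in anestrous and 129 RPM in estrous ovary, against 1.01 to 2.65 RPM in the 4 others (log2 fold 5.31 ± 0.28, limma adjusted p = 5.44e-05). SERPINE2, a protease inhibitor secreted by granulosa cells, had 946 RPM in anestrous and 5695 RPM in estrous ovary, against 131 and 126 RPM in anestrous and estrous hypothalamus and 25.4 and 39.6 RPM in anestrous and estrous pituitary. Hypothalamus and pituitary had it as well, and both ovary libraries lay above them (log2 fold 5.16 ± 0.66, limma adjusted p = 0.00136). NR5A2, a nuclear receptor that granulosa cells need for ovulation in mice, had 73.4 RPM in anestrous and 280.1 RPM in estrous ovary, against 0.19 to 3.72 RPM in the 4 others (log2 fold 6.3 ± 0.71, limma adjusted p = 0.000826).

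Other genes of the granulosa list were shared with a neighbour tissue. GJA1, the gap junction protein connexin 43, had 501 RPM in anestrous and 729 RPM in estrous ovary, against 641 and 729 RPM in anestrous and estrous hypothalamus and 15 and 19 RPM in anestrous and estrous pituitary. Ovary and hypothalamus overlapped, pituitary was far lower, and the call against pituitary (log2 fold 5.08, limma adjusted p = 7.76e-05) had no counterpart against hypothalamus (log2 fold -0.18, SE 0.24). FOXL2, a factor that maintains granulosa cells and also acts in pituitary gonadotropes, had 11 RPM in anestrous and 40.9 RPM in estrous ovary, against 0.19 and 0.0653 RPM in anestrous and estrous hypothalamus and 7.71 and 12.5 RPM in anestrous and estrous pituitary. The anestrous ovary lay within the pituitary range, and the log2 fold was 4.31 over hypothalamus (limma adjusted p = 0.00153) and 1.05 over pituitary (limma adjusted p = 0.203). The overall log2 fold of FOXL2 was 2.68, and 1.77 without the estrous ovary. GATM, an enzyme of creatine synthesis, had 30.8 RPM in anestrous and 58 RPM in estrous ovary, against 127 and 156 RPM in anestrous and estrous hypothalamus and 5.52 and 8.05 RPM in anestrous and estrous pituitary, between hypothalamus and pituitary. KITLG, the ligand through which granulosa cells support oocytes, had 0.426 RPM in anestrous and 0.194 RPM in estrous ovary, against 0.412 to 5.82 RPM in the 4 others, and was not called. AMH, INHBB and NR4A1 were not matched by symbol and are not analysed here.

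**Figure D2:**
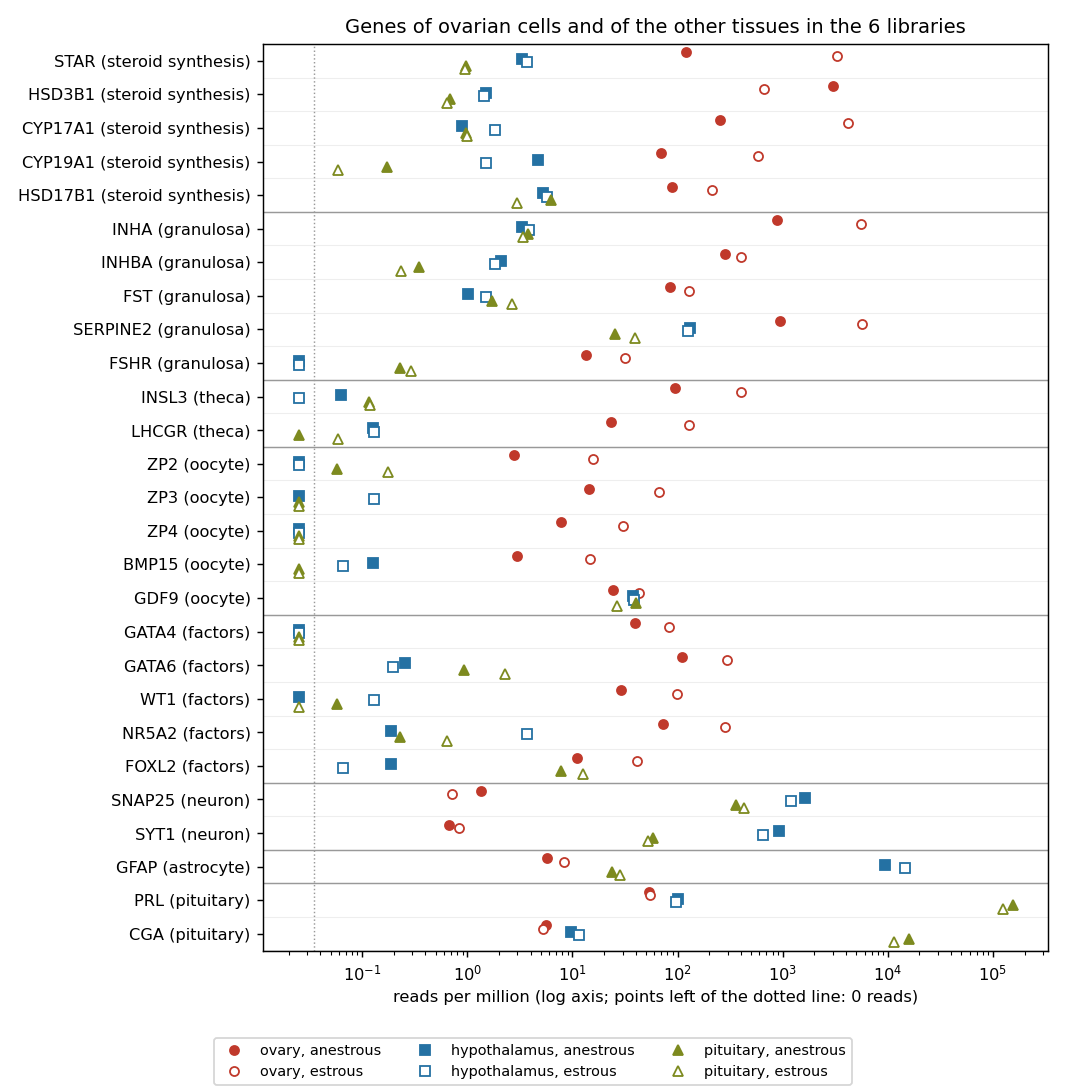
RPM (log axis) of 27 genes in the anestrous (filled) and estrous (open) libraries of ovary, hypothalamus and pituitary, with points left of the dotted line at 0 reads. The ovary points of steroid synthesis, granulosa, theca and most oocyte genes lie to the right of all others, GDF9 points of all tissues lie together, and neuronal, astrocyte and pituitary genes have the ovary points at the left.

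Theca and luteal genes gave 8 called higher and 0 lower of 9 tested, with a median log2 fold of 5.7; HSD3B1, CYP17A1, STAR, LHCGR and PTGFR, described above, also count here. INSL3 and LHCGR passed the filter only through the ovary libraries. INSL3, a peptide hormone of theca cells, had 94.2 RPM in anestrous and 403 RPM in estrous ovary, against 0.0632 and 0 RPM in anestrous and estrous hypothalamus and 0.115 and 0.118 RPM in anestrous and estrous pituitary. At most 2 of its reads fell in any library outside the ovary (log2 fold 7.51 ± 0.55, limma adjusted p = 0.000167). GLI2, a factor of hedgehog signalling, by which granulosa cells instruct theca in mice, had 17.8 RPM in anestrous and 42.1 RPM in estrous ovary, against 0.822 to 2.36 RPM in the 4 others (log2 fold 3.33 ± 0.42, limma adjusted p = 0.00124). GLI1, a target of that pathway, had 5.78 RPM in anestrous and 18.6 RPM in estrous ovary, against 2.53 and 4.38 RPM in anestrous and estrous hypothalamus and 0.115 and 0.941 RPM in anestrous and estrous pituitary (log2 fold 2.19 ± 0.49, limma adjusted p = 0.0118). It was called against pituitary (log2 fold 2.97, limma adjusted p = 0.00832) and not against hypothalamus (log2 fold 1.4, limma adjusted p = 0.0815). GLI1 was not called without the anestrous hypothalamus, and its log2 fold was 1.42 without the estrous ovary. PTCH1, the hedgehog receptor, had 26.5 RPM in anestrous and 69.3 RPM in estrous ovary, against 18.1 to 76.3 RPM in the 4 others, and its groups overlapped. NR5A1, RLN1 and PDGFRA had no match by symbol and were not used here.

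Most tested oocyte genes were higher in ovary, but for 6 of them the filter fixed the direction in advance. Of 24 members found, 11 passed the filter, 8 were called higher and 2 lower, with a median log2 fold of 2.24. Of the 11, 6 passed only through the ovary libraries: ZP2, ZP3, ZP4, BMP15, PADI6 and TLE6. All 6 are among the 8 called higher, so the count and the median rest largely on them. Of the rest, KIT and KPNA7 were called higher, NPM2 and SOHLH2 lower, and GDF9 was not called. The zona pellucida genes, whose products form the coat of the egg, were higher together. ZP3 had 14.5 RPM in anestrous and 66.7 RPM in estrous ovary, against 0 and 0.131 RPM in anestrous and estrous hypothalamus and 0 and 0 RPM in anestrous and estrous pituitary (log2 fold 4.97 ± 0.56, limma adjusted p = 0.000827). ZP4 had 7.85 RPM in anestrous and 30.2 RPM in estrous ovary and 0 reads in the 4 others, at least 104-fold higher by the mean of the ovary libraries against a floor of 3 reads per library, and at least 42.7-fold by the anestrous ovary alone. ZP2 had 2.8 RPM in anestrous and 15.6 RPM in estrous ovary, against 0 and 0 RPM in anestrous and estrous hypothalamus and 0.0575 and 0.176 RPM in anestrous and estrous pituitary (log2 fold 2.91 ± 0.55, limma adjusted p = 0.00639). The fold became 1.85 without the estrous ovary. In all 3 zona genes the estrous ovary was the higher library. PADI6, a protein of the cytoplasmic lattices of the oocyte, had 8.4 RPM in anestrous and 37.6 RPM in estrous ovary, against 0 to 0.173 RPM in the 4 others (log2 fold 4.15 ± 0.54, limma adjusted p = 0.00141). BMP15, a growth factor of the oocyte, had 2.98 RPM in anestrous and 14.7 RPM in estrous ovary, against 0 to 0.126 RPM in the 4 others (log2 fold 2.92 ± 0.52, limma adjusted p = 0.00495), and a log2 fold of 1.93 without the estrous ovary. KIT, the receptor of the oocyte for KITLG, had 76.7 RPM in anestrous and 139 RPM in estrous ovary, against 10.8 to 45.5 RPM in the 4 others (log2 fold 2.24 ± 0.29, limma adjusted p = 0.00153). KPNA7, an importin of oocytes and early embryos, and TLE6, a member of the subcortical maternal complex, were called higher at log2 folds of 2.22 and 1.75.

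Other oocyte genes went against the list's name. GDF9, the partner of BMP15, had 24.3 RPM in anestrous and 42.7 RPM in estrous ovary, against 37.7 and 38.7 RPM in anestrous and estrous hypothalamus and 40.4 and 26.8 RPM in anestrous and estrous pituitary. Its 6 libraries overlapped, and the log2 fold was -0.13 ± 0.28 (SE). NPM2, a chaperone of oocyte chromatin, had 0.426 RPM in anestrous and 1.94 RPM in estrous ovary, against 5.31 and 4.9 RPM in anestrous and estrous hypothalamus and 7.19 and 10.5 RPM in anestrous and estrous pituitary. It was lower in ovary than in every other library (log2 fold -1.91 ± 0.35, limma adjusted p = 0.00544). SOHLH2, a factor of early oocytes in mice, had 0.73 RPM in anestrous and 3.36 RPM in estrous ovary, against 6.01 and 9.47 RPM in anestrous and estrous hypothalamus and 8.17 and 12.1 RPM in anestrous and estrous pituitary. It was lower as well (log2 fold -1.82 ± 0.43, limma adjusted p = 0.014). SOHLH2 lost its call without the estrous hypothalamus or the estrous pituitary, and had a log2 fold of -1.15 without the anestrous ovary. Of the 13 members under the filter, MOS, the kinase that holds the mature egg before fertilization, had 18 and 63 reads in anestrous and estrous ovary and 0 elsewhere. FIGLA, which switches on the zona genes in mice, had 2 and 15 reads in anestrous and estrous ovary and 0 elsewhere, and OOEP, of the subcortical maternal complex, 5 and 21 reads in anestrous and estrous ovary. NLRP5 had 0 reads in anestrous and 8 in estrous ovary. NOBOX had no read in any library, and DAZL had 1 read, in the anestrous ovary. LHX8, a factor of early oocytes in mice, had 22 and 23 reads in anestrous and estrous ovary, against 2 and 15 in anestrous and estrous hypothalamus and 0 in pituitary. The other members, SOHLH1, DDX4, ZAR1, BTG4, ASTL and FBXO43, had at most 48 reads in any library. A count of 0 allows up to 3 reads, which is 0.183 RPM in the anestrous and 0.194 RPM in the estrous ovary, for counting error only.

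Transcription factors of the gonad gave 10 called higher and 1 lower of 12 tested, with a median log2 fold of 2.57. Of the 12, GATA4, GATA6 and WT1 passed the filter only through the ovary libraries. GATA4, a factor of granulosa and theca cells, had 38.9 RPM in anestrous and 82.2 RPM in estrous ovary and not a single read in hypothalamus or pituitary. It was at least 329.8-fold higher by the mean of the ovary libraries against that floor, and at least 212-fold by the anestrous ovary alone (limma adjusted p = 6.90e-05). GATA6, its close relative, had 110.4 RPM in anestrous and 296 RPM in estrous ovary, against 0.253 and 0.196 RPM in anestrous and estrous hypothalamus and 0.92 and 2.29 RPM in anestrous and estrous pituitary. A few reads were present in every other library, more in pituitary than in hypothalamus (log2 fold 6.7 ± 0.44, limma adjusted p = 0.00012). WT1, which is required to form a gonad in mice, had 28.7 RPM in anestrous and 98.7 RPM in estrous ovary, against 0 and 0.131 RPM in anestrous and estrous hypothalamus and 0.0575 and 0 RPM in anestrous and estrous pituitary (log2 fold 5.7 ± 0.47, limma adjusted p = 0.000265). TCF21, a factor of gonadal stroma, had 9.49 RPM in anestrous and 30.7 RPM in estrous ovary, against 0 and 0.0653 RPM in anestrous and estrous hypothalamus and 1.78 and 2.76 RPM in anestrous and estrous pituitary (log2 fold 3.32 ± 0.45, limma adjusted p = 0.00174). Pituitary held more of it than hypothalamus. NR2F2, a factor of theca and stroma, had 110.1 RPM in anestrous and 306 RPM in estrous ovary, against 21.6 to 58 RPM in the 4 others (log2 fold 2.46 ± 0.41, limma adjusted p = 0.00375). RUNX1 had 31.6 RPM in anestrous and 10.7 RPM in estrous ovary, against 2.0 to 3.33 RPM in the 4 others, and was higher in the anestrous than in the estrous ovary, unlike the other factors (log2 fold 2.43 ± 0.42, limma adjusted p = 0.0045).

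Not every factor separated the tissues. LHX9, needed for gonad formation in mice, had 4.02 RPM in anestrous and 16 RPM in estrous ovary, against 4.93 and 0.784 RPM in anestrous and estrous hypothalamus and 0.0575 and 0.0588 RPM in anestrous and estrous pituitary. Its anestrous hypothalamus library lay above the anestrous ovary. Its call (log2 fold 2.32) was lost without the estrous ovary (log2 fold 1.44), without the estrous hypothalamus or without either pituitary library. CBX2, a polycomb protein, had 12 RPM in anestrous and 25.3 RPM in estrous ovary, against 4.17 and 4.9 RPM in anestrous and estrous hypothalamus and 12.5 and 11.9 RPM in anestrous and estrous pituitary (log2 fold 1.11 ± 0.32, limma adjusted p = 0.0279). Ovary and pituitary overlapped, and its call was lost when any library but the anestrous ovary was left out (log2 fold 0.6 without the estrous ovary) and with TMM scaling (0.93). NR0B1, a nuclear receptor of gonads and pituitary gonadotropes, had 0.791 RPM in anestrous and 5.04 RPM in estrous ovary, against 0.443 and 0.849 RPM in anestrous and estrous hypothalamus and 11.3 and 3.23 RPM in anestrous and estrous pituitary, and was not called. SOX9, which drives the testis in place of the ovary and is a glial factor in brain, was lower in ovary (log2 fold -1.62 ± 0.21, limma adjusted p = 0.00148). It had 7.91 RPM in anestrous and 10.5 RPM in estrous ovary, against 72.5 and 56.9 RPM in anestrous and estrous hypothalamus and 13.3 and 14.6 RPM in anestrous and estrous pituitary. DMRT1, another testis factor, had no read in any library. EMX2 had 25 and 30 reads in anestrous and estrous ovary, against 8 and 9 in anestrous and estrous hypothalamus and 0 in pituitary, and did not pass the filter. NR5A1, RSPO1 and WNT4 had no match among the symbols and are not analysed here.

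HOX genes, which give cells their position along the body axis and are silent in most of the forebrain, divided the ovary from both other tissues. The 36 HOX genes found together held 728 reads in anestrous and 2054 reads in estrous ovary, against 55 and 63 in anestrous and estrous hypothalamus and 3 and 4 in anestrous and estrous pituitary. HOXD1 alone gave 54 and 58 of the hypothalamus reads, and without it the sums were 705 and 2048 reads in anestrous and estrous ovary and at most 5 in any other library. Of the 36 genes, 23 had reads in both ovary libraries, 12 had at least 10 in both, and 16 of the 23 had 0 reads in all 4 others. Paralog groups 1 to 8 gave 20 of 23 genes with reads in both ovary libraries. Paralog groups 9 to 13, which mark the hind part of the body, gave 3 of 13, namely HOXB9, HOXD9 and HOXD10. By RPM 23 of the 36 were lower in the anestrous than in the estrous ovary. HOXD1 was among those higher in anestrous ovary, with 23 reads in anestrous and 6 in estrous ovary.

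Of the HOX genes 9 passed the filter, 8 of them only through the ovary libraries, which binds these to come out higher. Of the 9, 8 were called higher and 0 lower, with a median log2 fold of 2.69, and 3.88 with genes at 0 elsewhere set to their lower bound. HOXD9 had 7.6 RPM in anestrous and 28.2 RPM in estrous ovary and 0 reads elsewhere, at least 97.4-fold higher by the mean of the ovary libraries and at least 41.4-fold by the anestrous ovary alone (limma adjusted p = 0.00103). HOXD8 had 6.33 RPM in anestrous and 17.4 RPM in estrous ovary and 0 reads elsewhere, at least 64.7-fold higher by the mean and at least 34.5-fold by the anestrous ovary alone (limma adjusted p = 0.000721). HOXC6 had 6.39 RPM in anestrous and 29.2 RPM in estrous ovary and 1 read elsewhere, in the estrous pituitary (log2 fold 3.88 ± 0.53, limma adjusted p = 0.00179). HOXB7 was nearly even between the states, with 3.95 RPM in anestrous and 5.17 RPM in estrous ovary and 0 reads elsewhere (log2 fold 2.47 ± 0.22, limma adjusted p = 0.000332). HOXC4 had 2.31 RPM in anestrous and 11.5 RPM in estrous ovary and 0 reads elsewhere (log2 fold 2.69 ± 0.51, limma adjusted p = 0.00612). The log2 fold of HOXC4 was 1.73 without the estrous ovary, and it was not called by DESeq2. HOXD4, HOXB2 and HOXA5 were called higher at log2 folds of 3.05, 2.13 and 1.83, the last 1.22 without the estrous ovary. HOXD1 was lower than in hypothalamus, with 1.4 RPM in anestrous and 0.387 RPM in estrous ovary, against 3.42 and 3.79 RPM in anestrous and estrous hypothalamus and 0 and 0 RPM in anestrous and estrous pituitary (log2 fold -1.33, limma adjusted p = 0.0153).

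**Figure D3:**
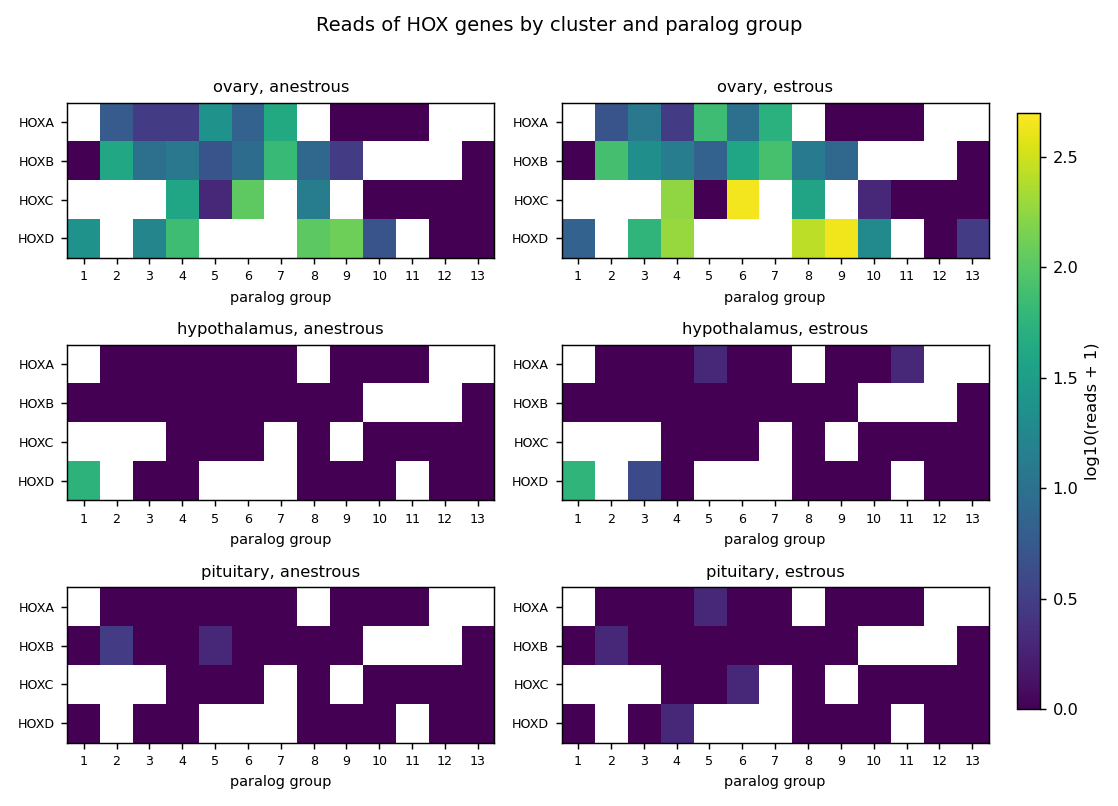
Reads of 35 of the 36 HOX genes as log10(reads + 1), by cluster (rows A to D) and paralog group (columns 1 to 13), in 1 panel for each library, with white cells where none is shown. Colour fills paralog groups 1 to 9 in both ovary panels, brighter in the estrous one, whereas hypothalamus shows HOXD1 with few other reads and pituitary shows only scattered cells.

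Genes of the supporting tissue were nearly all higher in ovary. Of 11 tested genes of stroma and fibroblasts, 10 were called higher and 0 lower, with a median log2 fold of 3.32. COL3A1, a fibrillar collagen, had 9856 RPM in anestrous and 7663 RPM in estrous ovary, against 20.1 and 34.5 RPM in anestrous and estrous hypothalamus and 244 and 473 RPM in anestrous and estrous pituitary. The order was ovary, then pituitary, then hypothalamus, with no overlap (log2 fold 6.49 ± 0.34, limma adjusted p = 5.28e-05). COL6A3, a chain of collagen VI, had 769 RPM in anestrous and 1731 RPM in estrous ovary, against 3.48 to 19 RPM in the 4 others (log2 fold 7.01 ± 0.37, limma adjusted p = 5.47e-05). DCN, decorin, a proteoglycan of collagen fibrils, had 1997 RPM in anestrous and 3518 RPM in estrous ovary, against 17.4 to 96.4 RPM in the 4 others (log2 fold 5.92 ± 0.31, limma adjusted p = 5.52e-05). COL1A2, a chain of collagen I, had 4668 RPM in anestrous and 9243 RPM in estrous ovary, against 94.4 to 464 RPM in the 4 others (log2 fold 4.88 ± 0.33, limma adjusted p = 0.000126). Smooth muscle and pericyte genes gave 8 called higher and 0 lower of 9, with a median log2 fold of 3.78, and 2.52 without the estrous ovary. ACTA2, smooth muscle actin, had 1908 RPM in anestrous and 3035 RPM in estrous ovary, against 48.5 and 26.8 RPM in anestrous and estrous hypothalamus and 36.8 and 21.2 RPM in anestrous and estrous pituitary (log2 fold 6.2 ± 0.35, limma adjusted p = 6.51e-05). TAGLN, transgelin, was even between the ovary states, with 2295 RPM in anestrous and 2262 RPM in estrous ovary, against 42.5 to 70.6 RPM in the 4 others (log2 fold 5.43 ± 0.18, limma adjusted p = 1.61e-05). ACTG2, the actin of visceral smooth muscle, had 121 RPM in anestrous and 757 RPM in estrous ovary, against 0.0588 to 0.885 RPM in the 4 others (log2 fold 7.74 ± 0.67, limma adjusted p = 0.00031). ACTG2 passed the filter only through the ovary libraries. The actin-binding CNN1 had 226 RPM in anestrous and 356 RPM in estrous ovary, against 1.59 to 18.9 RPM in the 4 others (log2 fold 5.12 ± 0.3, limma adjusted p = 8.30e-05).

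Genes of vessels were higher in part. Of 11 endothelial genes, 7 were called higher and 0 lower, with a median log2 fold of 1.28. LYVE1, a receptor of lymphatic endothelium and some macrophages, had 112 RPM in anestrous and 140.5 RPM in estrous ovary, against 0.316 and 0.979 RPM in anestrous and estrous hypothalamus and 0.575 and 0.588 RPM in anestrous and estrous pituitary. It was nearly absent outside the ovary (log2 fold 6.31 ± 0.26, limma adjusted p = 2.88e-05). LYVE1 passed the filter only through the ovary libraries, so its call adds nothing to these values. CCL21, a chemokine of lymphatic vessels that guides dendritic cells and T cells, was among the 12 highest genes (log2 fold 8.35 ± 0.25, limma adjusted p = 1.15e-05). CCL21 passed the filter only through the ovary libraries. Its levels were 714 RPM in anestrous and 483 RPM in estrous ovary, against 0.253 and 0.457 RPM in anestrous and estrous hypothalamus and 1.67 and 1.18 RPM in anestrous and estrous pituitary. ENG, endoglin, had 785 RPM in anestrous and 422 RPM in estrous ovary, against 53.1 to 93.3 RPM in the 4 others (log2 fold 3.03 ± 0.26, limma adjusted p = 0.000295). PECAM1, an adhesion molecule of all endothelium, had 347 RPM in anestrous and 278 RPM in estrous ovary, against 43.1 and 39.4 RPM in anestrous and estrous hypothalamus and 131 and 115 RPM in anestrous and estrous pituitary. It kept the order ovary, pituitary, hypothalamus (log2 fold 2.11 ± 0.17, limma adjusted p = 0.000219). VWF, the clotting factor stored in endothelium, had 141 RPM in anestrous and 204 RPM in estrous ovary, against 41.9 to 56 RPM in the 4 others (log2 fold 1.81 ± 0.2, limma adjusted p = 0.000846).

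Genes of the surface epithelium, mesothelium and oviduct were not a mark of these ovary libraries. Of 8 tested members 1 was called higher and 3 lower, against 17.9% and 16.7% of all tested genes. The median log2 fold was -0.79, and 0.075 without the anestrous ovary. Against hypothalamus 0 were higher and 1 lower (median log2 fold 1.09), where all tested genes had 18.4% and 21.7%. Against pituitary 1 was higher and 6 lower (median -2.46), where all tested genes had 19.8% and 11.8%. Of these 8, 1 passed the filter only through the ovary libraries. The keratin KRT18 had 0.122 RPM in anestrous and 0.775 RPM in estrous ovary, against 2.34 and 1.96 RPM in anestrous and estrous hypothalamus and 202 and 202 RPM in anestrous and estrous pituitary. It was lower in ovary than in all others (log2 fold -4.16 ± 0.26, limma adjusted p = 9.56e-05). KRT8, its partner, had 6.51 RPM in anestrous and 31.2 RPM in estrous ovary, against 2.21 and 9.27 RPM in anestrous and estrous hypothalamus and 636 and 654 RPM in anestrous and estrous pituitary. EPCAM, an adhesion protein of epithelia, had 21.1 RPM in anestrous and 4.84 RPM in estrous ovary, against 3.6 and 4.18 RPM in anestrous and estrous hypothalamus and 410.0 and 509 RPM in anestrous and estrous pituitary. Both were far lower than in pituitary, at log2 folds of -5.38 and -5.33, and were not called against hypothalamus. The overall call of KRT8 was lost, among other settings, without the anestrous ovary (log2 fold -0.92, and -3.02 without the estrous ovary). That of EPCAM was lost with edgeR and when any hypothalamus or pituitary library was left out, and its overall log2 fold of -2.06 was -1.1 without the estrous ovary. OVGP1, a glycoprotein of the oviduct, had 2.68 RPM in anestrous and 20.7 RPM in estrous ovary, against 0.23 to 2.48 RPM in the 4 others (log2 fold 2.03 ± 0.68, limma adjusted p = 0.0481). It was not called with TMM or when any library but the anestrous ovary was left out (log2 fold 0.74 without the estrous and 3.31 without the anestrous ovary).

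Most immune cell genes tested were higher in ovary. Of 10 macrophage genes 8 were called higher and 0 lower, with a median log2 fold of 1.93, and 2.92 without the estrous ovary. Of these 10, 1 passed the filter only through the ovary libraries. Against hypothalamus, where microglia express many of the same genes, 4 were called higher, against pituitary 8. CD68, a lysosomal protein of macrophages, had 486 RPM in anestrous and 242 RPM in estrous ovary, against 19.9 and 24.2 RPM in anestrous and estrous hypothalamus and 11 and 10.5 RPM in anestrous and estrous pituitary (log2 fold 4.39 ± 0.29, limma adjusted p = 0.000124). MSR1, a scavenger receptor, had 179 RPM in anestrous and 32.2 RPM in estrous ovary, against 3.8 to 4.29 RPM in the 4 others (log2 fold 3.95 ± 0.62, limma adjusted p = 0.00301). MRC1, the mannose receptor, was even between the states with 78.4 RPM in anestrous and 77.7 RPM in estrous ovary, against 4.18 to 10.4 RPM in the 4 others (log2 fold 3.33 ± 0.18, limma adjusted p = 6.24e-05). TREM2, a lipid receptor of macrophages and microglia, had 78.8 RPM in anestrous and 14.6 RPM in estrous ovary, against 13.2 and 20.8 RPM in anestrous and estrous hypothalamus and 0.403 and 1.82 RPM in anestrous and estrous pituitary, so the estrous ovary and hypothalamus overlapped. Its overall log2 fold was 2.57, and 1.4 without the anestrous ovary, and its call was lost without either hypothalamus library or the anestrous pituitary. Of 10 T and B lymphocyte genes 6 were called higher and 1 lower, with a median log2 fold of 1.58. Of these 10, 2 passed the filter only through the ovary libraries. CD3E, a chain of the T cell receptor complex, had 11.8 RPM in anestrous and 12.3 RPM in estrous ovary, against 0.759 to 2.59 RPM in the 4 others (log2 fold 2.37 ± 0.26, limma adjusted p = 0.000802). CD3D, another chain, and CD8A, of cytotoxic T cells, were called higher at log2 folds of 1.69 and 1.9. CD4, found on helper T cells and macrophages, had 43.1 RPM in anestrous and 12.6 RPM in estrous ovary, against 0.46 to 3.79 RPM in the 4 others (log2 fold 3.18 ± 0.5, limma adjusted p = 0.00308). The gene called lower was CD79B, a part of the B cell receptor, named after its values were seen. It had 9 and 25 reads in anestrous and estrous ovary, against 0 and 5 in anestrous and estrous hypothalamus and 423 and 273 in anestrous and estrous pituitary.

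All 9 cell cycle genes tested were called higher jointly, with a median log2 fold of 2.24. All 9 were called against hypothalamus and 7 against pituitary, where AURKB and CCNB2 were not, and CCNB2 passed the filter only through the ovary. TOP2A, a topoisomerase of dividing cells, had 33.2 RPM in anestrous and 55.1 RPM in estrous ovary, against 2.21 to 13.1 RPM in the 4 others (log2 fold 2.87 ± 0.46, limma adjusted p = 0.00316). MKI67, a marker of proliferation, had 37.1 RPM in anestrous and 32.8 RPM in estrous ovary, against 8.03 and 6.4 RPM in anestrous and estrous hypothalamus and 4.03 and 5.47 RPM in anestrous and estrous pituitary. Both ovary libraries lay above the others (log2 fold 2.39 ± 0.23, limma adjusted p = 0.000434). CCNB1, the cyclin of mitosis, and the spindle motor KIF11 were higher at log2 folds of 2.5 and 2.25. Of 10 ligands and antagonists of the BMP, activin and WNT families 6 were called higher and 1 lower, with a median log2 fold of 1.92. INHBA, FST and BMP15 were given above, and BMP15 passed the filter only through the ovary libraries. The gene called lower was BMP7, with 0.669 RPM in anestrous and 0.71 RPM in estrous ovary, against 48.1 and 34.2 RPM in anestrous and estrous hypothalamus and 16.6 and 31.7 RPM in anestrous and estrous pituitary (log2 fold -4.22 ± 0.31, limma adjusted p = 0.000177).

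Cholesterol genes as a list had a joint median close to that of all tested genes. Of 14 genes of cholesterol synthesis and uptake 3 were called higher and 0 lower, against 17.9% and 16.7% of all tested genes. Their median log2 fold was 0.14, against 0.15 over all tested genes. The median was -0.041 with TMM, 0.68 without the anestrous ovary and -0.37 without the estrous ovary. Against hypothalamus 1 was higher and 4 were lower, where all tested genes had 18.4% and 21.7%. Against pituitary 5 were higher and 0 lower, where all tested genes had 19.8% and 11.8%. SOAT1, which esterifies cholesterol for storage, had 78.4 RPM in anestrous and 71.9 RPM in estrous ovary, against 17.8 and 18.7 RPM in anestrous and estrous hypothalamus and 15.9 and 22 RPM in anestrous and estrous pituitary. It was the member called against each tissue (log2 fold 1.97 ± 0.19, limma adjusted p = 0.000505). INSIG1, which holds back sterol synthesis, had 67.3 RPM in anestrous and 68.6 RPM in estrous ovary, against 77.3 and 94 RPM in anestrous and estrous hypothalamus and 11 and 14.1 RPM in anestrous and estrous pituitary. It was at a log2 fold of 1.02 overall and under the threshold with TMM (0.84) and without the anestrous hypothalamus (0.95) or the anestrous pituitary (0.94). SQLE, an enzyme of sterol synthesis, had 18.6 RPM in anestrous and 58.9 RPM in estrous ovary, against 156 and 153 RPM in anestrous and estrous hypothalamus and 20.4 and 21.2 RPM in anestrous and estrous pituitary. It was lower than in hypothalamus (log2 fold -2.18, limma adjusted p = 0.0104).

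Ribosomal protein genes were mostly higher than in hypothalamus and not called against pituitary. Of 51 tested 30 were called higher and 0 lower jointly, with a median log2 fold of 1.02, and 14 were called with TMM. Against hypothalamus 48 were higher, and against pituitary 1. Their summed level was 35414 RPM in anestrous and 57827 RPM in estrous ovary, against 12340 and 13840 RPM in anestrous and estrous hypothalamus and 37839 and 36918 RPM in anestrous and estrous pituitary.

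**Figure D4:**
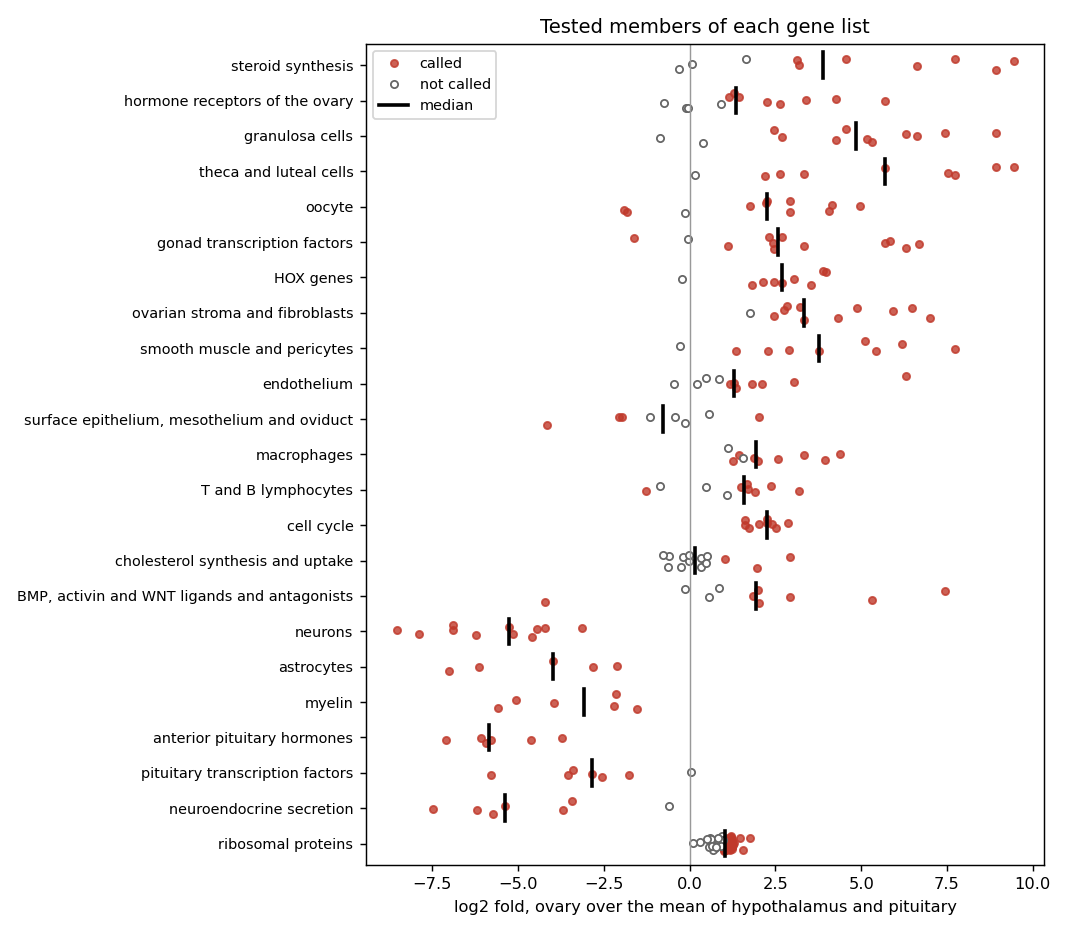
Log2 fold of ovary over the mean of hypothalamus and pituitary for each tested member of 23 gene lists, filled where called and open where not, with the median as a black bar. Medians of follicle, stroma and immune lists lie to the right of 0, those of neurons, glia, pituitary hormones and neuroendocrine secretion to the left, and cholesterol genes lie around 0.

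Genes of neurons, glia and pituitary cells were lower in ovary as a group. Of 11 neuronal genes 11 were called lower, with a median log2 fold of -5.26. SNAP25, a protein of synaptic vesicle fusion, had 1.34 RPM in anestrous and 0.71 RPM in estrous ovary, against 1625 and 1187 RPM in anestrous and estrous hypothalamus and 363 and 429.6 RPM in anestrous and estrous pituitary (log2 fold -8.54 ± 0.21, limma adjusted p = 8.18e-06). SYT1, the calcium sensor of release, had 0.669 RPM in anestrous and 0.839 RPM in estrous ovary, against 923 and 652 RPM in anestrous and estrous hypothalamus and 58.1 and 52.3 RPM in anestrous and estrous pituitary (log2 fold -6.9 ± 0.2, limma adjusted p = 1.10e-05). The neurofilament gene NEFL had 0.73 RPM in anestrous and 0.969 RPM in estrous ovary, against 148 to 1174 RPM in the 4 others (log2 fold -7.9 ± 0.2, limma adjusted p = 8.18e-06). All 5 astrocyte genes and all 6 myelin genes tested were called lower jointly, at median log2 folds of -3.98 and -3.09, though against pituitary alone 2 of the 5 and 0 of the 6 were. GFAP, the filament protein of astrocytes, had 5.78 RPM in anestrous and 8.33 RPM in estrous ovary, against 9342 and 14495 RPM in anestrous and estrous hypothalamus and 23.9 and 28.5 RPM in anestrous and estrous pituitary (log2 fold -6.14 ± 0.24, limma adjusted p = 2.52e-05). With the 4 other libraries pooled, GFAP and the other named glial and pituitary hormone genes were not called.

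All 6 anterior pituitary hormone genes tested were called lower, with a median log2 fold of -5.86. All 6 were called against pituitary (median log2 fold -11.05) and 1 against hypothalamus (median -0.67). PRL, prolactin, had 53.1 RPM in anestrous and 54.4 RPM in estrous ovary, against 101 and 96.6 RPM in anestrous and estrous hypothalamus and 154280 and 125600 RPM in anestrous and estrous pituitary. The ovary and hypothalamus libraries were both far below pituitary, at a log2 fold of ovary over pituitary of -11.31 (limma adjusted p = 4.45e-06). CGA, the alpha subunit of the gonadotropins, had 5.66 RPM in anestrous and 5.23 RPM in estrous ovary, against 9.68 and 11.5 RPM in anestrous and estrous hypothalamus and 15782 and 11349 RPM in anestrous and estrous pituitary (log2 fold over pituitary -11.02, limma adjusted p = 5.23e-06). GH1, growth hormone, had 28.4 RPM in anestrous and 30.3 RPM in estrous ovary, against 40.9 to 68548 RPM in the 4 others (log2 fold over pituitary -11.09). These low levels can be set against the pituitary ones. Over PRL, GH1, POMC, CGA, FSHB and TSHB the ovary library held 0.023% to 0.182% of the level in the pituitary library of the same state, with a median of 0.0423%. For SNAP25, GFAP and AQP4 it held 0.0425% to 0.0824% of the level in hypothalamus. The source of these reads was not tested, and no expression is read from values in this range.

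Pituitary transcription factors gave 6 called lower and 0 higher of 7, with a median log2 fold of -2.84. Against pituitary 6 of the 7 were lower (median log2 fold -5.6), and against hypothalamus 1 was (median -0.087). POU1F1, a lineage factor, had 0 RPM in anestrous and 0.194 RPM in estrous ovary, against 0.126 to 59.1 RPM in the 4 others. Genes of neuroendocrine secretion gave 6 called lower and 0 higher of 7, with a median log2 fold of -5.38, and the 6 were lower against each tissue. CHGB, chromogranin B of secretory granules, had 27.3 RPM in anestrous and 14 RPM in estrous ovary, against 604 and 516 RPM in anestrous and estrous hypothalamus and 31112 and 18775 RPM in anestrous and estrous pituitary (log2 fold -7.48 ± 0.32, limma adjusted p = 2.94e-05). PCSK2, which cuts prohormones, had 2 reads in each ovary library and 0.122 RPM in anestrous and 0.129 RPM in estrous ovary, against 57.5 to 112 RPM in the 4 others (log2 fold -6.19 ± 0.21, limma adjusted p = 1.61e-05). CPE, which trims the cut peptides, had 12.2 RPM in anestrous and 18.3 RPM in estrous ovary, against 386 to 1112 RPM in the 4 others (log2 fold -5.38 ± 0.21, limma adjusted p = 2.49e-05).

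The 12 named genes with the largest positive log2 fold joined these groups. Besides HSD3B1, INHA, CYP17A1, CCL21, ACTG2, STAR, INSL3, INHBA, COL6A3 and GATA6 they held CTSL and LYZ. CTSL, the lysosomal protease cathepsin L, had 419.7 RPM in anestrous and 1709 RPM in estrous ovary, against 2.09 and 4.11 RPM in anestrous and estrous hypothalamus and 0.863 and 1.82 RPM in anestrous and estrous pituitary (log2 fold 8.13 ± 0.57, limma adjusted p = 0.000146). LYZ, lysozyme, of macrophages and granulocytes, had 4578 RPM in anestrous and 106 RPM in estrous ovary, against 3.1 and 2.81 RPM in anestrous and estrous hypothalamus and 3.39 and 7.82 RPM in anestrous and estrous pituitary (log2 fold 7.14 ± 1.34, limma adjusted p = 0.00603). Its log2 fold was 4.44 without the anestrous ovary. The 10 with the most negative log2 fold were genes that hypothalamus and pituitary share, which a ranking against the average of both tissues favours. TMEM130, a membrane protein, had 0.304 RPM in anestrous and 0.71 RPM in estrous ovary, against 845 and 657 RPM in anestrous and estrous hypothalamus and 695 and 541 RPM in anestrous and estrous pituitary (log2 fold -8.82 ± 0.21, limma adjusted p = 8.18e-06). DIRAS3, a small GTPase that is imprinted in humans, had 3.22 RPM in anestrous and 2.65 RPM in estrous ovary, against 1739 and 1616 RPM in anestrous and estrous hypothalamus and 1342 and 1395 RPM in anestrous and estrous pituitary (log2 fold -8.59 ± 0.15, limma adjusted p = 7.46e-06). RESP18, a protein of neuroendocrine cells, had 0.183 RPM in anestrous and 0.129 RPM in estrous ovary, against 243 to 373 RPM in the 4 others (log2 fold -8.15 ± 0.2, limma adjusted p = 8.18e-06). IGSF1, a membrane glycoprotein of pituitary, had 2.01 RPM in anestrous and 3.94 RPM in estrous ovary, against 207 and 241 RPM in anestrous and estrous hypothalamus and 2478 and 2785 RPM in anestrous and estrous pituitary (log2 fold -7.64 ± 0.23, limma adjusted p = 1.15e-05). SNAP25, NEFL, the neurofilament protein INA, BCAS1, NRSN1 and ATCAY made up the rest. In all 10 both ovary libraries lay below all 4 others, which the ranking also favours.

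A stricter view counted genes by reads alone. Of 16887 genes with reads in any library, 22 had at least 10 reads in each ovary library and none in the 4 others. With at least 10 reads in each of the 4 others and none in ovary there were 67. The rules are unlike, because the 67 needed 0 reads in fewer libraries, so these counts show no balance between the tissues. The 22 held GATA4, ZP4, MOS and 7 HOX genes (HOXD9, HOXD8, HOXB7, HOXA7, HOXC4, HOXC8 and HOXB4). The others were named after their values were seen. PI15, a peptidase inhibitor, had 117 and 348 reads in anestrous and estrous ovary. NLRP9, an oocyte gene in cattle and mice, had 32 and 241 reads in anestrous and estrous ovary. SULT2A1, which sulfates steroids, had 17 and 135 reads in anestrous and estrous ovary. TCN1, a binding protein of vitamin B12 in granulocytes, ran the other way, with 380 reads in anestrous and 21 in estrous ovary.

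The ovary libraries differed from each other more than the libraries of another tissue did. On log2(RPM + 1), 2318 of the 13483 tested genes (17.2%) differed at least 2-fold between the anestrous and estrous ovary, against 273 (2.02%) in hypothalamus and 371 (2.75%) in pituitary. With 1 library per state this is a description of these libraries, and the states, the sows and the follicles present cannot be told apart. Of the 2412 genes called higher in ovary, 423 had a level in the anestrous ovary 2-fold or more above the estrous one and 345 a level 2-fold or more below it, and 1644 differed less. Over all tested genes the anestrous ovary was lower by 2-fold or more for 9.47% and higher by that much for 7.72%. At least 2-fold lower in anestrous ovary were 7 of 10 steroid synthesis genes, 7 of 12 granulosa genes, 8 of 11 oocyte genes, 10 of 12 gonad transcription factors and 6 of 9 HOX genes, with median log2 ratios of anestrous over estrous ovary of -2.38, -1.22, -1.33, -1.53 and -1.32. Macrophage genes lay on the higher side, at least 2-fold for 7 of 10, with a median of 1.95. Stroma was mixed, with 3 of 11 genes higher and 5 lower.

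Single genes carried the extremes. Among genes called higher with at least 50 reads in the ovary libraries, LYZ was 43-fold higher in anestrous than in estrous ovary (95% counting interval 41 to 45.2). FN1, fibronectin, had 14081 RPM in anestrous and 461 RPM in estrous ovary, against 69.2 and 126 RPM in anestrous and estrous hypothalamus and 102 and 127 RPM in anestrous and estrous pituitary, a ratio of 30.5 in anestrous over estrous ovary. Its log2 fold over the other tissues was 4.61, with 2.15 without the anestrous ovary and 7.08 without the estrous ovary, and it was not called when any hypothalamus or pituitary library was left out. HK3, a hexokinase of myeloid cells, SMPDL3B and UNC45B were 23.2, 22.7 and 25.9-fold higher in anestrous ovary. Without the anestrous ovary their log2 folds over the other tissues were 1.11, 2.25 and 1.53, against 3.35, 4.42 and 3.67 with both libraries and 5.59, 6.59 and 5.8 without the estrous ovary, and none of the 3 was called when a hypothalamus or pituitary library was left out, nor HK3 with TMM. SMPDL3B and UNC45B passed the filter only through the ovary libraries. At the other end STAR was 27.2-fold lower in anestrous ovary (95% counting interval 26 to 28.5), RDH12, a retinol dehydrogenase, 23-fold, CYP17A1 16.3-fold and EGR1, an immediate early gene, 8.51-fold. RDH12 had 8.52 RPM in anestrous and 196 RPM in estrous ovary, against 13.3 and 12.9 RPM in anestrous and estrous hypothalamus and 0.575 and 0.294 RPM in anestrous and estrous pituitary. It had a log2 fold over the other tissues of 3.27 that was 1.09 without the estrous ovary, 5.46 without the anestrous ovary and not called with TMM or when any hypothalamus or pituitary library was left out. EGR1 had 129.8 RPM in anestrous and 1104 RPM in estrous ovary, against 15.1 and 37.5 RPM in anestrous and estrous hypothalamus and 135 and 121 RPM in anestrous and estrous pituitary. Its log2 fold was 2.75, and it was not called when any library other than the anestrous ovary was left out (log2 fold 1.21 without the estrous and 4.29 without the anestrous ovary). These intervals cover counting error only, because each state had 1 ovary library. They also take each read as a separate molecule, though reads that carry no molecular identifier may be copies of 1 molecule. Of the steroid synthesis genes, HSD3B1 was 4.54-fold higher in anestrous ovary (95% counting interval 4.45 to 4.64) and SRD5A1 1.85-fold (95% counting interval 1.62 to 2.12). INHBA, TAGLN, MRC1 and MKI67 stayed within 2-fold.

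**Figure D5:**
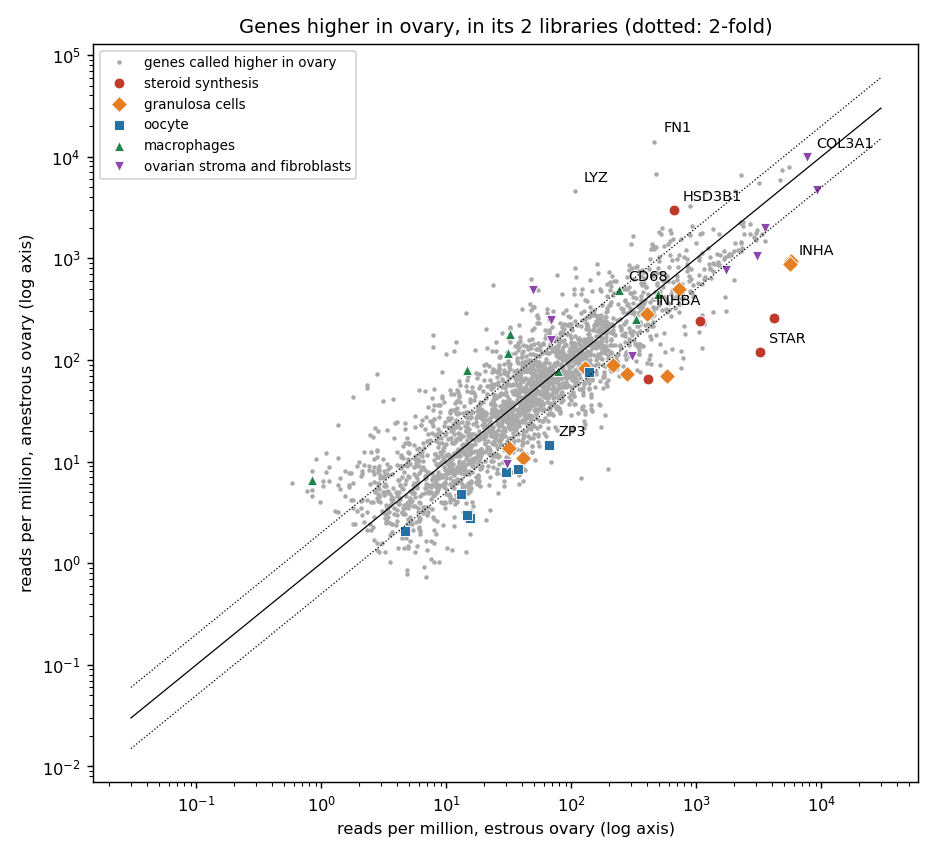
RPM in estrous (x axis) and anestrous ovary (y axis), both on log axes, for the 2412 genes called higher in ovary, with members of 5 gene lists in colour, equal levels as a solid line and 2-fold differences dotted. Steroid synthesis genes other than HSD3B1, granulosa and oocyte genes lie below the line, most macrophage genes on or above it, and LYZ and FN1 far above.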

How the data were processed

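RNA of ovary, hypothalamus and pituitary was extracted with Trizol, made into TruSeq libraries and sequenced on an Illumina HiSeq instrument, per the labels' protocols. TopHat2 version 2.1.0 is named in the submitters' processing notes, and the counting tool and the genome build are not given in the sources used here. The authors deposited 1 table per tissue, named for DESeq per the labels, with a signal column per library that holds gene read counts divided by a size factor, as the file headers and the values show. Dividing each column by its smallest value above 0 gave whole reads for 100% of values (tolerance 0.01), which undid the separate normalization of the 3 tables. Reads were put on the reads-per-million scale (RPM) of the library total, and the tables joined on gene ID (19465 genes, of which 14419 had a symbol from the tables or from the name table). The authors' deposited fold and p-value columns were not used. No sequence table was at hand, so no sequences are shown.

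Genes with a mean of at least 1 RPM over the 6 libraries were fitted with limma 3.58.1 in R 4.3.3 (trend) on log2(RPM + 1), with a pseudocount of 1. The values were not treated as counts in the main test, and edgeR 4.0.16 and DESeq2 1.42.0 on the recovered reads, TMM and DESeq2 scaling, other pseudocounts and filters, a block for state, pooled libraries and leaving out each library were alternatives. Of symbols at 2 IDs (ESR1, INSR, GLI1, NOTCH3, RPS16 and RPL26) the ID with more reads was used, strand of counting is unknown, and genes with near-identical copies or overlapping neighbours are uncertain. Named genes were the 12 highest and 10 lowest called genes by log2 fold, the members of 7 lists of ovary genes, up to 4 members with the largest log2 fold of the 16 other lists, and the 5 highest and 5 lowest by the ratio of the ovary states. The members and lists were chosen with earlier results of these data known. Anestrous and estrous sows each gave all 3 tissues by the labels, so state can pair the libraries. State differences of hypothalamus and pituitary correlated at 0.209 across genes, those of ovary with hypothalamus at 0.00273 and with pituitary at 0.0155. Some members counted in the lists are not reported here by name.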

Additional observations from a re-analysis of the deposited data

Results flagged for a closer look

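In 4 members of the gene lists ovary differed from hypothalamus and from pituitary in opposite directions, and the difference of the log2 folds, ovary over hypothalamus minus ovary over pituitary, passed limma's test. PGR had a difference of 3.373 (log2 fold 1.57 over hypothalamus and -1.8 over pituitary, limma adjusted p = 0.00297). GATM had a difference of -4.204 (log2 fold -1.71 over hypothalamus and 2.5 over pituitary, limma adjusted p = 0.000454). NPC1, a cholesterol transporter of lysosomes, had a difference of -3.634 (log2 fold -1.33 over hypothalamus and 2.3 over pituitary, limma adjusted p = 0.000364). MOBP, a myelin protein, had a difference of -8.176 (log2 fold -5.64 over hypothalamus and 2.54 over pituitary, limma adjusted p = 3.72e-05). Over all 13483 tested genes, 32 were called higher than in hypothalamus and lower than in pituitary, and 122 the reverse. This difference equals pituitary over hypothalamus, because the ovary libraries cancel. NPC1 and MOBP were named after their values were seen. MOBP had 117 and 122 reads in anestrous and estrous ovary, against 5550 and 7761 in anestrous and estrous hypothalamus and 6 and 10 in anestrous and estrous pituitary.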

How the results depend on the processing

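Over 143 named genes and the alternatives run, 2059 of 2254 values kept their direction and side of the threshold, 153 lost the call, 9 gained it and 33 reversed. Pooling the 4 other libraries lost the call of 43 of the 143 named genes, which include genes that had no call to lose. The state as a replicate block gave 2438 higher and 2260 lower genes and changed no call of a named gene. Genes called higher overall (2412) numbered 1311 with the pooled libraries and 943 at a log2 fold of 2, and 1872 to 2668 when a library was left out. Genes called lower (2250) numbered 1467 with a pseudocount of 5, 1350 with a minimum of 10 RPM, 854 pooled and 1043 at a log2 fold of 2, and 2014 to 2548 with a library left out. Against hypothalamus, 2477 higher became 1019 at a log2 fold of 2 and 1441 to 2864 with a library left out, and 2928 lower became 1805 at 10 RPM, 1607 at a log2 fold of 2 and 2184 to 3182. Against pituitary, 2665 higher became 1156 at a log2 fold of 2 and 1226 to 2989 with a library left out, and 1592 lower became 1060 with a pseudocount of 5, 999 at 10 RPM, 813 at a log2 fold of 2 and 1040 to 1966. Higher against each tissue (1475) became 601 at a log2 fold of 2 and 803 to 1801 with a library left out, and lower against each (1132) became 691 with a pseudocount of 5, 518 at a log2 fold of 2 and 782 to 1399. At 10 RPM, 1548 of 2452 genes had both ovary libraries below all others. By log2 fold, HSD17B7 (0.07) was -0.11 with TMM, -0.10 with DESeq2 size factors, -0.12 with edgeR and -0.11 with DESeq2. PGR (-0.11) was 0.12 with a pseudocount of 0.1, 0.077 with edgeR and 0.088 with DESeq2. PTCH1 (0.15) was -0.036 with TMM and -0.026 with size factors. NR0B1 (-0.06) was 0.025 with a pseudocount of 0.1, 0.17 with edgeR and 0.18 with DESeq2. HOXD1 (-0.23) was 0.49 with a pseudocount of 0.1, 2.40 with edgeR and 2.05 with DESeq2. The cholesterol median (0.14) was -0.041 with TMM and -0.030 with size factors. With a library left out the ranges were -0.012 to 0.15 for HSD17B7, -0.74 to 0.12 for SRD5A1, -0.28 to 2.09 for ESR1, -0.68 to 0.46 for PGR, -0.34 to 0.23 for GHR, -0.051 to 0.84 for GATM, -0.53 to 0.82 for PTCH1, -0.53 to 0.26 for GDF9, -0.94 to 0.82 for NR0B1, -0.63 to 0.16 for HOXD1, -1.57 to 0.042 for SQLE, -1.15 to 0.075 for the surface epithelium median and -0.37 to 0.68 for the cholesterol median. The cause was not tested. A tissue left with 1 library gives no spread, and the fit assumes that it varies like the others. For the ovary this assumption is weak. The median absolute log2 difference between states was 0.436 in ovary, against 0.197 in hypothalamus and 0.215 in pituitary. Calls made without an ovary library therefore do not take in the spread between the ovary libraries.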

Other observations

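By the pathway names in the deposited tables, over 178 pathways with at least 30 tested genes, extracellular matrix receptor interaction had 36 of 48 genes (75%) called higher in ovary. Complement and coagulation cascades had 28 of 43 (65.1%), hematopoietic cell lineage 27 of 46 (58.7%) and antigen processing and presentation 17 of 34 (50%). Over all tested genes the share was 17.9%. GABAergic synapse had 28 of 50 genes (56%) called lower, and the synaptic vesicle cycle 19 of 39, against 16.7% of all tested genes. Among pathways that every cell uses, the shares called higher ran widely. They were 0 of 32 basal transcription factors, 3 of 83 spliceosome genes and 3 of 80 genes of oxidative phosphorylation, but 30 of 86 genes (34.9%) of the ribosome and 36 of 83 (43.4%) of the lysosome. For hypothalamus libraries the level of the 7 ovary genes checked (HSD3B1, CYP17A1, INHA, STAR, CYP19A1, INHBA and INSL3) was 0% to 6.70% of that in the ovary library of the same state (median 0.238%), and for pituitary libraries 0.0101% to 0.818% (median 0.0795%).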
